A study of Homo sapiens with 3 samples.

Results

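Small nucleolar RNAs (snoRNAs) and small Cajal body RNAs (scaRNAs) are short non-coding RNAs that guide chemical modification of other RNAs. Their genes were collected here as the probe sets annotated with exactly 1 symbol that begins with SNORD, SNORA or SCARNA and a digit, taking the probe set with the highest mean over the 3 arrays for each gene. The annotation gave 247 such genes, 152 SNORD, 74 SNORA and 21 SCARNA, among 33616 genes of the series with exactly 1 symbol. A gene was described further when its log2 signal, averaged across the arrays, reached 4.42, the middle value of all genes, which 147 of the 247 did (71 SNORD, 60 SNORA and 16 SCARNA) and 16808 genes of the series in all. The genes were chosen by this mean signal and by the difference of each siRNA array from the control array, so the values below are a description and no test is attached to them.

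The arrays measured total RNA from MDA-MB-231, a human breast cancer cell line that lacks estrogen and progesterone receptors, 48 hours after transfection. Cells received control siRNA (siControl) or 1 of the siRNAs siTMPO-AS1 #1 and siTMPO-AS1 #2, both directed against TMPO-AS1, a long non-coding RNA transcribed antisense to TMPO. Each condition was represented by 1 array, so no value has a replicate and each ratio is that of 1 array to 1 array. The question the arrays address is which transcripts differ when TMPO-AS1 is targeted.

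Box C/D snoRNAs (SNORD) carry a C and a D box, are bound by fibrillarin and guide methylation of the ribose of ribosomal and spliceosomal RNA. H/ACA snoRNAs (SNORA) form hairpins closed by an ACA box, are bound by dyskerin and guide conversion of uridine to pseudouridine. ScaRNAs (SCARNA) do the same work on spliceosomal small nuclear RNAs in the Cajal body and may carry either kind of box or both. In human cells most of these RNAs are cut from introns of other genes, called host genes, while U3 and U13 are transcribed from promoters of their own.

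The deposited values are log2 signals. TMPO-AS1 had a signal of 4.83 with siControl, 4.37 with siTMPO-AS1 #1 and 4.28 with siTMPO-AS1 #2. These signals lay close to the brightness threshold of 4.42. The log2 differences from siControl, -0.46 and -0.55, were both smaller than 1.5-fold. Array medians lay between 3.73 and 3.75. On all 3 arrays 1144 of 138745 probe sets exceeded 16, among them that of SNORD13, the brightest snoRNA gene. Markers of this mesenchymal cell line (VIM, CD44, EGFR, AXL, CAV1 and MSN) had means from 11.05 to 16.42. Of 6 luminal or epithelial markers 3 (ESR1, PGR and CDH1) lay below the brightness threshold, while EPCAM had a mean of 11.80 and ERBB2 of 8.08. In bulk RNA, fewer cells holding a transcript and less of it per cell cannot be told apart.

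The symbol did not always name the locus that was measured. The 247 genes had 546 probe sets. Among those annotated with a gene identifier, the chromosome written in the probe set identifier was that of the RefSeq gene for 180 and was not for 2. Among those with a symbol but no gene identifier, 32 carried the chromosome of the RefSeq gene, 311 did not, and 21 had a symbol without a RefSeq match. Probe sets with no gene identifier are called family-named below, since most bear the name of an snoRNA at a position that is not that of the named gene. Among the 147 genes, 102 were represented by a probe set with a gene identifier and 45 by a family-named one. SNORA70 had the most probe sets of the genes past the threshold, 29. In 53 of the 147 genes there was more than 1 probe set, and in 14 of these 53 the brightest set and the median of the others had ratios of the same sign with both siRNAs.

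The 147 genes were spread less widely around the control than genes at large. Log2 ratios were formed by subtracting the siControl signal from the signal with each siRNA. The SD of the ratios over the 147 genes was 0.56 for siTMPO-AS1 #1 and 0.43 for siTMPO-AS1 #2, against 0.80 and 0.59 over all 16808 genes tested. Their ratios ranged from -1.19 to 1.86 with siTMPO-AS1 #1 and from -1.21 to 1.42 with siTMPO-AS1 #2. Their medians were 0.15 and 0.07, and those over all genes tested were 0.02 and 0.09. Members and all genes tested were not matched for signal, here or in the shares below. Of the members, 28 SNORD, 17 SNORA and 2 SCARNA genes reached 7.79, the 75th percentile of all genes of the series. The part that signal has in these spreads and shares was not tested.

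Members past 1.5-fold with siTMPO-AS1 #1 lay mostly above the control. At least 1.5-fold higher were 34 of the 147 (23.1%, where all genes tested gave 16.6%), and at least 1.5-fold lower were 8 (5.44%, against 18.8%). With siTMPO-AS1 #2 there were 14 higher (9.52%, against 16.1%) and 7 lower (4.76%, against 10.4%). With both siRNAs 10 were higher (6.80%, against 5.42%) and 2 were lower (1.36%, against 4.07%), so the share higher with both stood near that of all genes. In opposite directions 1 member passed 1.5-fold (0.680%, against 3.30%). Both comparisons share the siControl array. The mean behind the brightness threshold includes the siRNA arrays, for all genes tested as for members. Among the 34 genes higher with siTMPO-AS1 #1, SNORA44, SNORD27, SNORD39 and SNORD127 lay below the threshold on the control array.

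Box C/D genes had median ratios of 0.14 for siTMPO-AS1 #1 and 0.08 for siTMPO-AS1 #2, the second of which turned to -0.01 when arrays were centred on the median gene and to -0.02 when a loess trend on mean signal was removed. H/ACA genes had medians of 0.17 and 0.08, and the second turned to -0.02 and -0.01 under the same scalings. The classes differed in how many genes were at least 1.5-fold higher with siTMPO-AS1 #2. There 2 of 71 SNORD genes were higher (2.82%) and 10 of 60 SNORA genes (16.7%), the latter near the 16.1% of all genes tested. On the same array 4 SNORD genes (5.63%) and 2 SNORA genes (3.33%) were lower, beside 10.4% of all genes tested. With siTMPO-AS1 #1, where all genes tested gave 16.6% higher and 18.8% lower, 15 SNORD genes were higher (21.1%) and 4 lower (5.63%), and 15 SNORA genes were higher (25%) and 4 lower (6.67%). The 15 SNORD genes include 4 near-identical copies of U3. With both siRNAs 1 SNORD gene was higher and 1 lower, while 8 SNORA genes (13.3%, against 5.42% of all genes) were higher and 1 was lower. Of those 8, SNORA71D alone remained past a stricter brightness threshold of 7.79, and at 2-fold with both siRNAs the count was 0.

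**Figure D1:**
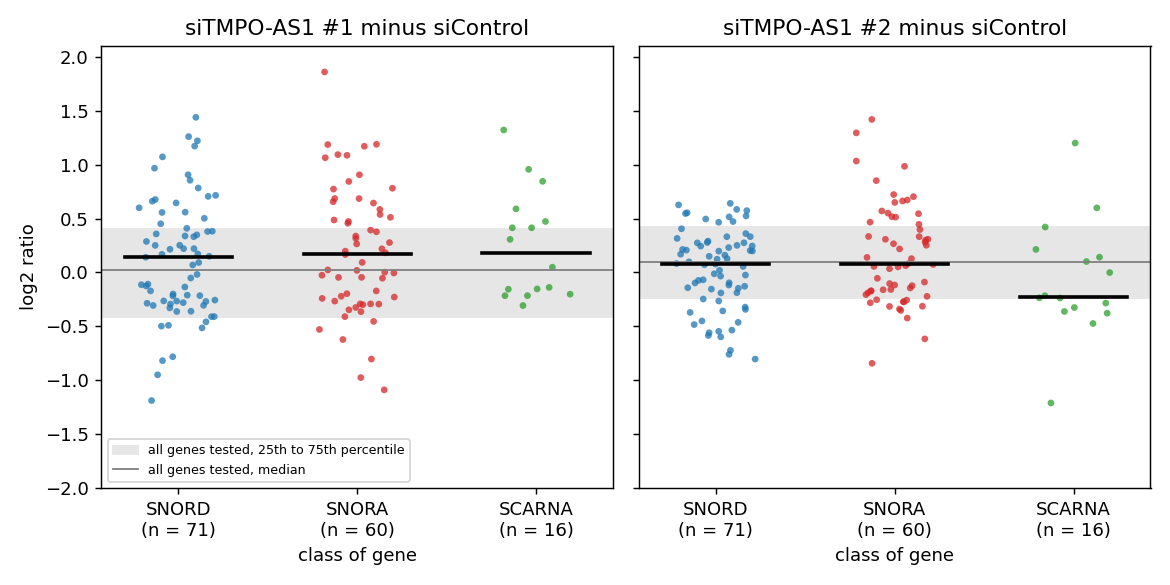
Log2 ratios (vertical axis) of the 71 SNORD, 60 SNORA and 16 SCARNA genes with siTMPO-AS1 #1 and with siTMPO-AS1 #2, each against the single siControl array; each point is a gene and the black bar is the median of the class. The grey band spans the 25th to 75th percentiles of all 16808 genes tested and the grey line is their median, and the class medians lie between -0.23 and 0.18, inside the grey band. The SCARNA median of -0.23 for siTMPO-AS1 #2 turned to 0.03 when all probe sets of a gene were averaged and to -0.32 when arrays were centred.

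Among the 8 H/ACA genes higher with both siRNAs, SNORA37 had the largest value of its smaller ratio. Its signal was 5.98 with siControl, 7.15 with siTMPO-AS1 #1 and 6.96 with siTMPO-AS1 #2. Both siRNA arrays thus stood about 1 log2 unit above the control (ratios 1.17 and 0.98). SNORA37 lies within MBD2, the gene of a methyl-CpG binding protein, whose own ratios were 0.22 and 0.58. SNORA70E had signals of 7.09, 8.16 and 7.94 in the same order, which are ratios of 1.06 and 0.85. It lies within RAB30, a small GTPase gene, which was itself higher with both siRNAs (1.10 and 1.34).

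SNORA71D had signals of 10.13 with siControl, 10.91 with siTMPO-AS1 #1 and 11.55 with siTMPO-AS1 #2. Its ratios were 0.78 and 1.42, the second being the largest of any member with siTMPO-AS1 #2. SNORA71D lies within SNHG17, a host gene that makes no protein, together with SNORA71B (0.09 and 0.27) and SNORA71C (0.38 and 0.40), and all 3 stood above the control on both siRNA arrays. These are members of 1 sequence family, and their probe sets may share target RNA.

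SNORA13, which guides a pseudouridine in 18S ribosomal RNA, had signals of 6.07 with siControl, 7.15 with siTMPO-AS1 #1 and 6.79 with siTMPO-AS1 #2 (ratios 1.09 and 0.72). It lies in the span of EPB41L4A-AS1, which overlaps EPB41L4A. SNORA14A had signals of 5.89, 7.75 and 6.56, and its ratio of 1.86 with siTMPO-AS1 #1 was the largest of all 147 genes, against 0.67 with siTMPO-AS1 #2. With the arrays centred the second ratio was 0.58, just short of 1.5-fold, which left 7 H/ACA genes higher with both. SNORA14B, a gene of the same family, had 0.66 and -0.12.

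SNORA15 had signals of 6.36, 7.04 and 7.39 on the probe set with a gene identifier (ratios 0.69 and 1.03). It lies within CCT6A, a chaperonin subunit gene with ratios of -0.22 and 0.50. A pair of further SNORA15 probe sets on the same chromosome, without an identifier and with identical values, had signals of 6.53, 6.50 and 7.39, so they stood above the control with siTMPO-AS1 #2 and level with it with siTMPO-AS1 #1. The remaining 2 of the 8 were family-named. SNORA67 had signals of 6.41, 7.25 and 7.70 (0.84 and 1.29), and SNORA44 had 3.94, 4.71 and 4.64 (0.77 and 0.70). Over the other SNORA67 probe sets the median ratios were 0.31 and -0.03. SNORA44 lay below the brightness threshold on the control array and met it only through its siRNA arrays.

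SNORA33 was the H/ACA gene lower with both siRNAs. Its signals were 7.79 with siControl, 6.99 with siTMPO-AS1 #1 and 7.18 with siTMPO-AS1 #2 (ratios -0.80 and -0.62). Over the other SNORA33 probe sets, all below the brightness threshold, the median ratios were -0.06 and 0.12. With all probe sets of a gene averaged, or the dimmest used, 0 H/ACA genes were at least 1.5-fold lower with both siRNAs. SNORA33 lies within RPS12, a gene of the small ribosomal subunit whose mRNA had ratios of 0.04 and 0.11. SNORA26 was lower with both, past 1.5-fold with siTMPO-AS1 #2, at 7.81, 7.36 and 6.97 (-0.45 and -0.84). It lies within DANCR, a long non-coding host gene.

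Ranked by the smaller of their ratios, 4 further H/ACA genes followed. SNORA55 had signals of 9.55, 9.20 and 9.20, and SNORA54 had 6.98, 6.68 and 6.72. SNORA80A had 4.89, 4.48 and 4.61, and the family-named SNORA81 had 6.98, 6.68 and 6.70. The ratios of these 4 genes lay between -0.41 and -0.26, all inside 1.5-fold. Over the 2 other SNORA81 probe sets, both past the brightness threshold, the median ratios were 0.13 and 0.03. The family-named SNORA72 (-1.09 and -0.09) and SNORA57 (-0.53 and -0.14) were further below the control with siTMPO-AS1 #1 but nearer to it with siTMPO-AS1 #2.

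SNORA71D and SNORA26 lie in host genes whose transcripts code for no protein, and the sequence around each host's start is shown because these snoRNAs stood at opposite ends of the H/ACA group with siTMPO-AS1 #2. The stretches are from RefSeq (GRCh38.p14) and run from 60 bases before the start to 40 bases after it, with the transcribed bases in capitals. SNHG17 lies on the minus strand at chr20:38435289-38435388 and DANCR on the plus strand at chr4:52712334-52712433.
SNHG17: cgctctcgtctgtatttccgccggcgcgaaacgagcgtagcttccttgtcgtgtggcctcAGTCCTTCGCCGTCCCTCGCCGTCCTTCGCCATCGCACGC
DANCR: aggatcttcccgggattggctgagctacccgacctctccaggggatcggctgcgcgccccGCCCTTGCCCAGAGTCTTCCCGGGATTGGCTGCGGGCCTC
GC content over the 300-base windows from which these were taken was 57.3% for SNHG17 and 67.7% for DANCR, where the median over 35116 promoter windows was 58.7%. The palindromic E-box letters CACGTG, which read alike on both strands, occurred 0 times in either window and in 7.26% of all windows. The probe sets that cover these host genes carry several symbols, so no host value is given for them.

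**Figure D2:**
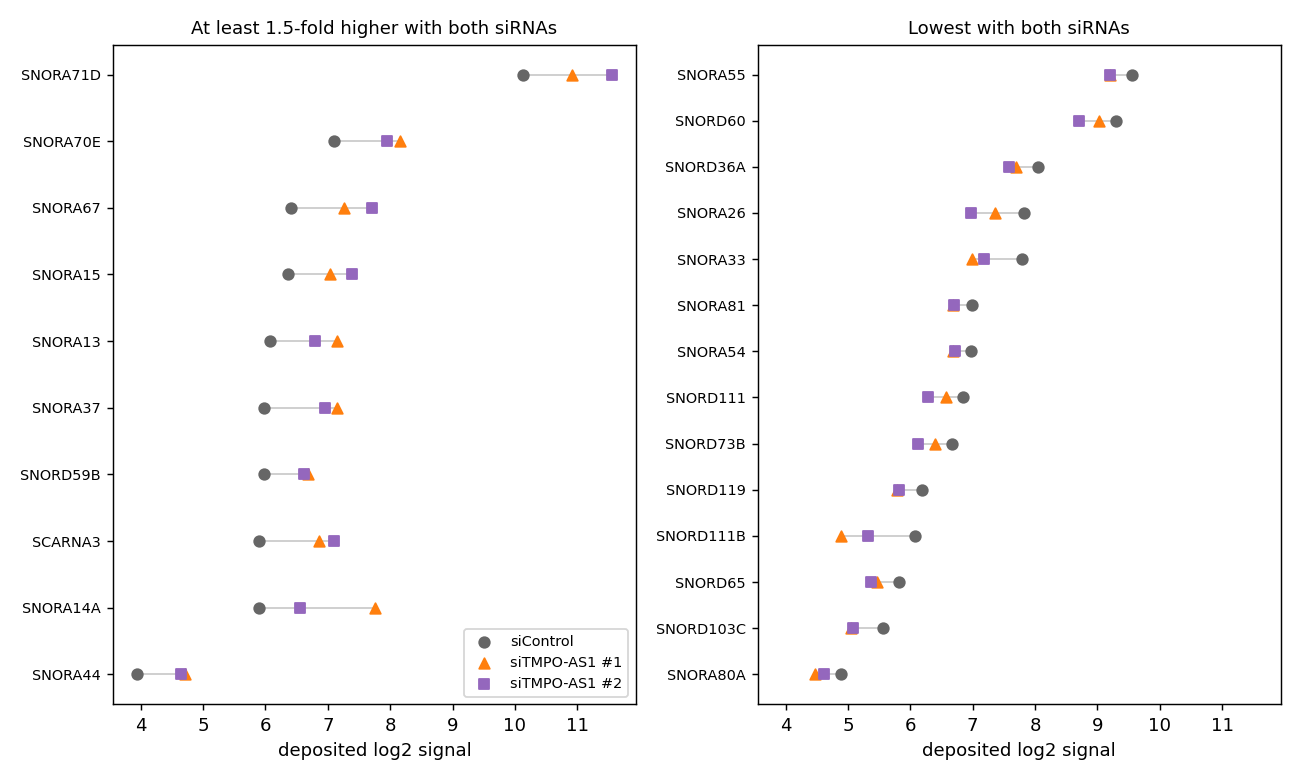
Deposited log2 signal (horizontal axis) on the siControl array (circle), the siTMPO-AS1 #1 array (triangle) and the siTMPO-AS1 #2 array (square) for the 10 genes at least 1.5-fold higher with both siRNAs and for the 8 SNORD and 6 SNORA genes lowest with both. The choice of genes fixes the place of the control circle, which is the lowest of the 3 signals in the left panel and the highest in the right panel.

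Among box C/D genes, SNORD59B was the gene higher than 1.5-fold with both siRNAs, at 5.98 with siControl, 6.68 with siTMPO-AS1 #1 and 6.62 with siTMPO-AS1 #2 (ratios 0.71 and 0.64). With the arrays centred, or a loess trend removed, its second ratio no longer reached 1.5-fold. SNORD59B lies within ATP5F1B, a subunit gene of mitochondrial ATP synthase (0.54 and 0.35), beside SNORD59A, which had ratios of 0.09 and -0.02. SNORD96B had signals of 4.54, 5.45 and 5.11, and SNORD94, which guides methylation of U6 small nuclear RNA, had 5.61, 6.27 and 6.17. Their ratios with siTMPO-AS1 #2, 0.57 and 0.55, fell just short of 1.5-fold.

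SNORD9 (6.29, 7.07 and 6.76) and SNORD8 (8.13, 9.10 and 8.26) lie in the same host gene, CHD8, a chromatin remodelling factor. Both stood at least 1.5-fold above the control with siTMPO-AS1 #1, where CHD8 had a ratio of 0.50, and inside 1.5-fold with siTMPO-AS1 #2. SNORD72, within the ribosomal protein gene RPL37, had 8.61, 9.06 and 9.23 (ratios 0.45 and 0.63). The 3 family-named genes of this end were SNORD27 (ratios 1.17 and 0.50), SNORD13P3 (0.60 and 0.40) and SNORD112 (0.35 and 0.52), of which SNORD27 had a control signal of 4.18, below the brightness threshold.

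SNORD111B was the box C/D gene lower than 1.5-fold with both siRNAs. Its signals were 6.07 with siControl, 4.89 with siTMPO-AS1 #1 and 5.31 with siTMPO-AS1 #2 (ratios -1.19 and -0.76), the lowest ratio of any member with siTMPO-AS1 #1. It shares its host gene SF3B3, a splicing factor subunit gene with ratios of -0.03 and -0.15, with SNORD111 (6.84, 6.58 and 6.28), whose ratios were -0.27 and -0.56. On these probe sets both snoRNAs of this gene stood below the control on both arrays. A further SNORD111 probe set, below the brightness threshold, had ratios of -0.04 and 0.68.

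Ranked by the smaller of their ratios, the next box C/D genes below the control with both siRNAs were within 1.5-fold with siTMPO-AS1 #1. SNORD60, within SNHG19, had signals of 9.30, 9.03 and 8.70 (ratios -0.27 and -0.60). SNORD103C had 5.56, 5.05 and 5.08, and SNORD119, within the spliceosomal protein gene SNRPB, had 6.19, 5.78 and 5.82. SNRPB itself had -0.03 and 0.97. The family-named SNORD65, SNORD36A and SNORD73B had ratios from -0.36 to -0.28 with siTMPO-AS1 #1 and from -0.55 to -0.45 with siTMPO-AS1 #2.

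**Figure D3:**
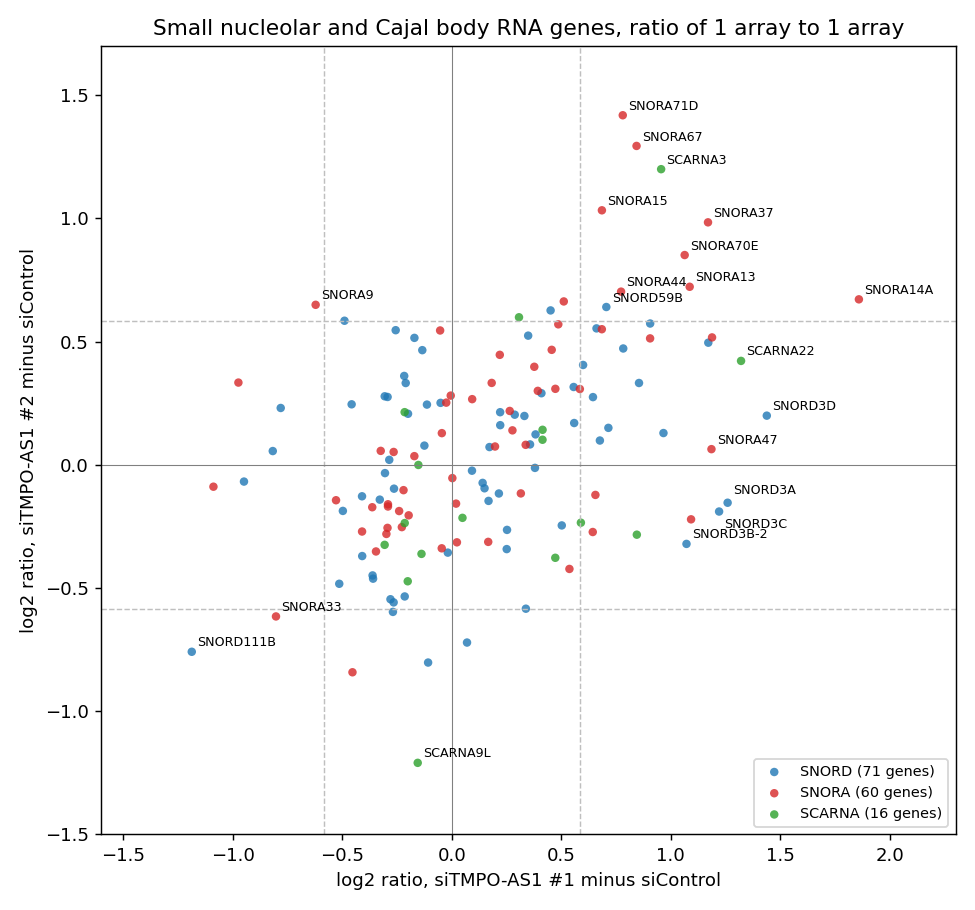
Log2 ratio with siTMPO-AS1 #1 (horizontal axis) against that with siTMPO-AS1 #2 (vertical axis) for the 147 genes, 1 point per gene and coloured by class; dashed lines mark 1.5-fold. Both axes share the siControl array, 8 SNORA genes lie beyond both upper lines, and the U3 copies (SNORD3A, SNORD3B-2, SNORD3C and SNORD3D) lie to the right near 0 on the vertical axis.

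U3, the abundant box C/D RNA required for the early cleavages that release 18S ribosomal RNA, differed between the siRNAs. SNORD3A had a signal of 15.49 with siControl, 16.75 with siTMPO-AS1 #1 and 15.34 with siTMPO-AS1 #2, which is 2.39-fold above the control on the first siRNA array and a ratio of -0.15 on the second. SNORD3C had 15.87, 17.09 and 15.68, and SNORD3B-2 had 16.27, 17.34 and 15.94. SNORD3D had 15.88, 17.31 and 16.08 (ratios 1.44 and 0.20). The 4 copies are near-identical in sequence, so they are best read as 1 measurement and not as 4. Signals above 16 exceed the largest value a 16-bit scan can hold on a log2 scale, so folds of these genes are those of the deposited scale. With the 5 SNORD genes that reach such values left out, the SNORD median for siTMPO-AS1 #1 was 0.03 in place of 0.14.

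The other box C/D RNAs of ribosome assembly did not share one direction. SNORD13, the U13 RNA that guides acetylation of 18S ribosomal RNA, had signals of 17.67, 18.00 and 17.87. SNORD14A, a copy of U14, which is needed for 18S processing, had 8.27, 8.99 and 8.42 (ratios 0.71 and 0.15), whereas its copy SNORD14E had 6.02, 5.20 and 6.08 (-0.82 and 0.06). U14 copies are alike in sequence, and reads of one by the probes of another were not tested. The ratio of SNORD14E with siTMPO-AS1 #2 changed sign under the other scalings.

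Part of the other short RNAs on the same arrays also stood above the control with siTMPO-AS1 #1. From 42 genes of spliceosomal U RNAs, Y RNAs, vault RNAs, 7SK and the RNA parts of RNase P and RNase MRP, a group added after the values were seen, 37 passed the brightness threshold. The medians of these genes were 0.53 for siTMPO-AS1 #1 and 0.12 for siTMPO-AS1 #2. At least 1.5-fold higher were 15 of the 37 with siTMPO-AS1 #1 (40.5%, against 16.6% of all genes tested) and 3 with siTMPO-AS1 #2 (8.11%, against 16.1%). With both siRNAs 2 were higher (5.41%, against 5.42%), RNU2-63P (ratios 2.28 and 0.99) and RNVU1-3 (1.23 and 0.77). Below the control with siTMPO-AS1 #1 were RNU4ATAC (-0.51), RNY1 (-0.21), RNY5 (-0.18) and RNY3 (-0.01). RNU4-2, a U4 gene, had signals of 12.97, 14.55 and 12.89, and RNU6-1, a U6 gene, had 14.37, 15.38 and 14.36. RNU12, of the minor spliceosome, had 9.65, 11.08 and 9.74, while RNY3 had 18.22, 18.21 and 18.20. Many of these genes are copies or variants of one another. RNU6-1 and RNU6-8 had the same values, as did RNU1-2 and RNU1-4, and RNU1-3 and RNVU1-18. The 15 higher with siTMPO-AS1 #1 include several U1 variants (RNVU1), U4 and U6 copies, so the 40.5% counts genes and not separate measurements. The part that short RNA content of the siTMPO-AS1 #1 sample has in the U3 difference was not tested.

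**Figure D4:**
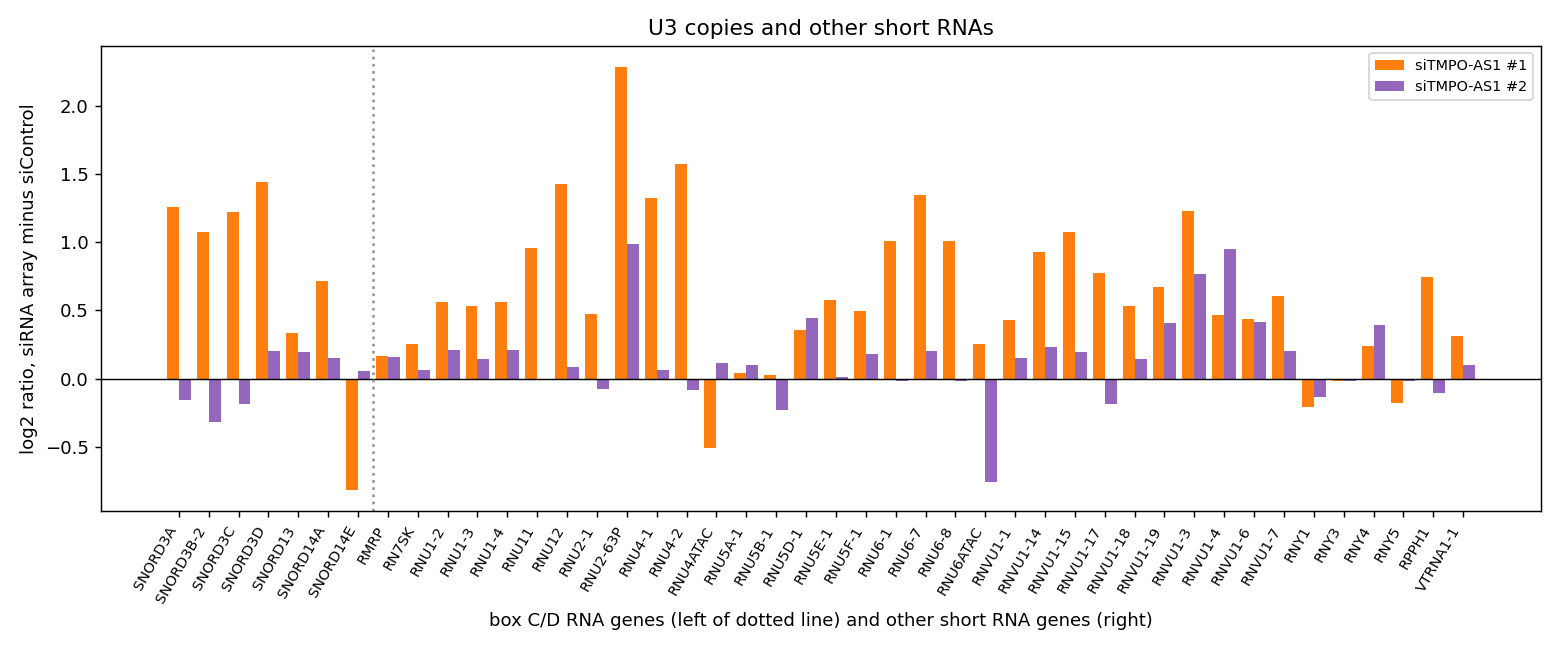
Log2 ratio to siControl (vertical axis, bars start at 0) with siTMPO-AS1 #1 (orange) and siTMPO-AS1 #2 (purple) for 7 box C/D RNA genes of ribosome assembly (left of the dotted line) and the 37 other short RNA genes past the brightness threshold. The orange bars of U3 stand between 1.07 and 1.44 and those of RNU4-2 and RNU12 at 1.58 and 1.43, while the purple bars of the same genes lie between -0.32 and 0.20. The tallest orange and purple bars are both those of RNU2-63P, at 2.28 and 0.99.

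Besides U3, several guides stood apart between the siRNAs. Of all genes tested, 14.9% had a signal at least 1.5-fold higher on the siTMPO-AS1 #1 array than on the siTMPO-AS1 #2 array and 22.7% a lower one. SNORD genes gave 11 of 71 (15.5%) and 8 (11.3%), and SNORA genes 7 of 60 (11.7%) and 5 (8.33%). Of the 16 SCARNA genes 5 were higher (31.2%) and 0 lower. SNORA79 had signals of 8.49, 9.58 and 8.27 in the order siControl, siTMPO-AS1 #1 and siTMPO-AS1 #2, and SNORA47 had 10.21, 11.40 and 10.28. On these probe sets both were about 1 log2 unit above the control with siTMPO-AS1 #1 and close to it with siTMPO-AS1 #2. A further SNORA79 probe set, also past the brightness threshold, had ratios of -0.11 and -0.09. GTF2A1, the gene that holds SNORA79, had -1.57 and 0.47, and ZBED3, which holds SNORA47, lay below the brightness threshold on all 3 arrays (2.95, 3.06 and 3.08).

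In the other direction, SNORA28 had 6.91, 5.93 and 7.24, and EIF5, the translation factor gene around it, had ratios of 0.24 and -0.01. SNORD101 had 6.33, 5.38 and 6.26, and SNORD56B had 6.81, 6.03 and 7.04. The family-named SNORA9 (5.65, 5.03 and 6.30) was the 1 gene past 1.5-fold in opposite directions, with ratios of -0.62 and 0.65. With the arrays centred or a loess trend removed, its second ratio was 0.56 or 0.57, just short of 1.5-fold. Over the other SNORA9 probe sets the median ratios were 0.06 and 0.21. SNORA72 (6.50, 5.41 and 6.41) and SNORD28 (4.46, 3.97 and 5.05) were family-named too.

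Over 16 scaRNA genes the median ratio was 0.18 for siTMPO-AS1 #1 and -0.23 for siTMPO-AS1 #2, but the second turned to 0.030 when all probe sets of a gene were averaged, to 0.093 over the 2 genes past the stricter brightness threshold, and to -0.0010 with the dimmest probe set or with identifier-matched probe sets alone. The second was -0.32 with arrays centred, -0.29 with a loess trend removed and -0.17 with no brightness filter. The first ranged from 0.049 to 0.96 over the alternatives. At least 1.5-fold higher with siTMPO-AS1 #1 were 4 genes (25%, against 16.6% of all genes tested) and 0 were lower (against 18.8%). With siTMPO-AS1 #2 there were 2 higher (12.5%, against 16.1%) and 1 lower (6.25%, against 10.4%). SCARNA3 was the 1 scaRNA past 1.5-fold with both siRNAs. Its signals were 5.90 with siControl, 6.85 with siTMPO-AS1 #1 and 7.10 with siTMPO-AS1 #2 (ratios 0.96 and 1.20). It lies within COP1, a ubiquitin ligase gene with ratios of -0.10 and 0.51.

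The span of SCARNA3 overlaps a microRNA hairpin, MIR1843, and its sequence is shown because it is the stretch of a member past 1.5-fold with both siRNAs that the reference tables hold. RefSeq (GRCh38.p14) places the hairpin on the minus strand at chr1:175968370-175968479, and capitals mark the 83 of its 110 bases that fall inside the SCARNA3 span. In the mature hsa-miR-1843, which falls wholly inside that span at chr1:175968440-175968459, capitals mark the seed, bases 2 to 8.
MIR1843 hairpin: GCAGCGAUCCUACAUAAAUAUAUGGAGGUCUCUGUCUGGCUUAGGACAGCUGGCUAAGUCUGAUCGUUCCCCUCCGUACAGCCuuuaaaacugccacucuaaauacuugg
hsa-miR-1843: uAUGGAGGucucugucuggc
Signal on the SCARNA3 probe set cannot be assigned to the scaRNA or to the hairpin precursor from these values.

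SCARNA22, also called ACA11, lies in an intron of the histone methyltransferase gene NSD2. It had signals of 7.77, 9.09 and 8.19 (ratios 1.32 and 0.42), while NSD2 had -0.35 and -0.10. SCARNA23 had 4.84, 5.15 and 5.44 (0.31 and 0.60), within POLA1, the catalytic subunit gene of DNA polymerase alpha (-0.19 and 0.37). These 2 and SCARNA3 were the highest of the class with both siRNAs.

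SCARNA9 and SCARNA10, guides for U2 and U5 small nuclear RNA, were higher with siTMPO-AS1 #1 alone. SCARNA9 had 11.93, 12.52 and 11.70 (0.59 and -0.24), and SCARNA10 had 4.58, 5.42 and 4.30 (0.84 and -0.28). SCARNA9 is among the 4 scaRNA genes counted as at least 1.5-fold higher with siTMPO-AS1 #1. With the arrays centred or a loess trend removed, its ratio there was 0.56 or 0.53, short of 1.5-fold. SCARNA9L, a copy related to SCARNA9, had 7.30, 7.14 and 6.09 (-0.16 and -1.21), the lowest ratio of any member with siTMPO-AS1 #2. The lowest with both siRNAs were SCARNA8 (6.71, 6.51 and 6.23) and the family-named SCARNA6 (5.78, 5.48 and 5.46) and SCARNA20 (5.61, 5.40 and 5.38), all inside 1.5-fold. The SCARNA6 probe set with a gene identifier and matching chromosome had 5.37, 5.44 and 5.62, above the control with both siRNAs (0.07 and 0.25). That of SCARNA20, below the brightness threshold, had ratios of 0.43 and -0.36. HAUS6, the gene around SCARNA8, had ratios of -0.77 and -1.98.

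Host genes were found as RefSeq genes whose span holds that of the snoRNA; the table used gives no strand, so a host may lie on the opposite strand. Of the 102 genes with an identifier, 95 lay inside another gene, and the 7 outside were SNORD13, SNORD32B, SCARNA2 and the 4 U3 copies. A single host with a value of its own was available for 65 members in 52 host genes. Member and host had the same sign in 44 of the 65 with siTMPO-AS1 #1 and in 34 with siTMPO-AS1 #2. Across these 65 pairs Spearman's rho was 0.22 for siTMPO-AS1 #1 and 0.21 for siTMPO-AS1 #2, as a description of pairs that share arrays and in part host genes. The hosts of 11 members passed 1.5-fold in 1 direction with both siRNAs, where all genes tested gave 5.42% higher and 4.07% lower. These were 7 host genes, since 5 of the 11 members lie in MEG8, which was below the brightness threshold on all 3 arrays. In 1 of the 11, SNORA70E in RAB30, the member passed too.

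**Figure D5:**
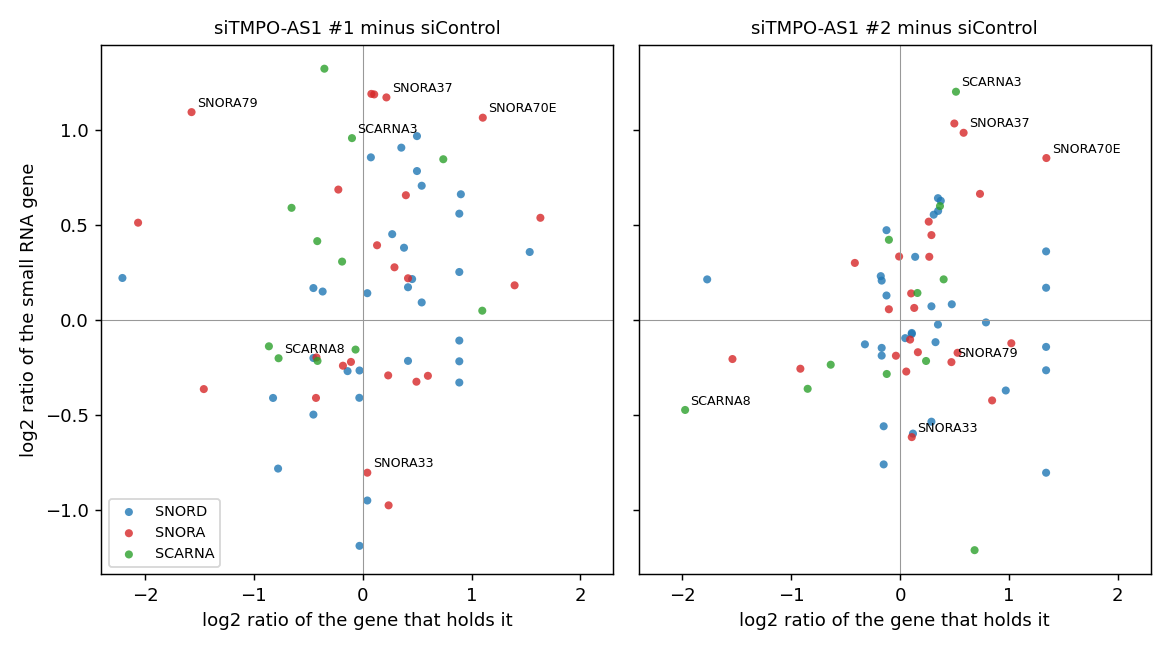
Log2 ratio of the gene that holds a snoRNA or scaRNA (horizontal axis) against the log2 ratio of that small RNA (vertical axis) with each siRNA, 1 point for each of the 65 members with a single measured host. SNORA70E lies at upper right in both panels, SNORA79 moves from upper left with siTMPO-AS1 #1 to below 0 with siTMPO-AS1 #2, and points fall on both sides of 0 on either axis.

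Guides cut from the same host did not share one ratio. In RPS12, SNORA33 was lower with both siRNAs, SNORD101 had -0.95 and -0.07, and SNORD100 (9.85, 9.99 and 9.78) had 0.14 and -0.07. In NCL, the gene of nucleolin, SNORD82 had 0.17 and 0.07, SNORA75 had 0.22 and 0.45, and SNORD20 had -0.22 and -0.53, where NCL itself had 0.42 and 0.29. In NOP58, whose protein belongs to the box C/D particle, SNORD11 had -0.20 and 0.21, SNORD11B had -0.50 and -0.19, and SNORD70 had 0.17 and -0.15. In TBRG4, SNORA5A (0.91 and 0.51) and SNORA5C (0.49 and 0.57) were above the control on both arrays. The hosts RPS12, NCL, NOP58, TBRG4, CHD8, SF3B3 and ATP5F1B were picked out after their values were seen.

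The imprinted clusters known mainly from brain were dim. All 22 SNORD115 and both SNORD116 genes measured lay below the brightness threshold, with means from 2.40 to 4.28 for SNORD115. Of 9 SNORD113 genes 1 passed and of 30 SNORD114 genes 4 passed, and these 5 lie in MEG8, the only host holding 4 or more members past the threshold. SNORD113-8 had signals of 5.32, 5.21 and 4.51, and SNORD114-27 had 5.06, 5.62 and 5.23. SNORD114-11 (-0.33 and -0.14), SNORD114-17 (0.25 and -0.26) and SNORD114-19 (-0.22 and 0.36) showed no common direction. The MEG8 probe set itself had 2.73, 3.62 and 4.08, below the threshold on all 3 arrays, and copies of these families are alike in sequence.

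Genes next to the brightness threshold show what it decides. Just above it were SNORA44, SNORD114-17 and SNORA70F, the last with ratios of -0.36 and -0.17. Just below it were SNORD7 (3.92, 4.03 and 5.29), SNORA3 (4.60, 4.19 and 4.35) and SNORD88A (4.59, 4.35 and 4.31). Without the threshold 6 of 152 SNORD genes were at least 1.5-fold higher with both siRNAs (3.95%, against 3.66% of all 33616 genes) and 3 lower (1.97%, against 3.09%).

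Proteins that build and carry these RNAs were followed through a list of 26 genes, of which 24 were tested. Their medians were 0.31 for siTMPO-AS1 #1 and 0.45 for siTMPO-AS1 #2, where all genes tested had 0.02 and 0.09. At least 1.5-fold higher with both siRNAs were 3 of the 24, and 0 were lower, beside 5.42% and 4.07% of all genes. These were NOP10, a core protein of the H/ACA particle (15.50, 16.24 and 16.22), RUVBL2, an ATPase of the assembly machinery (10.23, 11.37 and 10.95), and ZNHIT3, an assembly factor of box C/D particles (8.46, 9.37 and 9.29).

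Of the H/ACA core, GAR1 had ratios of 0.53 and 0.84 and NHP2 had -0.16 and 0.44. Of the box C/D core, the methyltransferase gene FBL had -0.12 and 0.33, NOP58 had -0.45 and -0.17, and SNU13 had -0.25 and 0.46. DKC1 and NOP56 had no probe set with 1 symbol. The assembly factors NAF1 (0.25 and 0.81), ZNHIT6 (0.42 and 0.94) and NUFIP1 (0.72 and 0.49) stood above the control on both arrays and RPAP3 (-0.41 and -0.49) below it, while SHQ1, the chaperone of dyskerin, passed 1.5-fold in opposite directions (0.66 and -0.87). COIL, the gene of the Cajal body scaffold coilin, had signals of 9.67, 8.03 and 9.77. It was thus 1.64 log2 units below the control with siTMPO-AS1 #1 and close to it with siTMPO-AS1 #2. WRAP53, which carries scaRNAs to the Cajal body, had -0.35 and -0.15, and PARN, a nuclease that trims the ends of H/ACA RNAs, had 0.66 and 0.51. TCOF1, the gene of the nucleolar protein treacle, had -0.22 and -0.69.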

How the data were processed

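One table of the whole series was analysed, with 1 column per array. The deposited values are log2 signals; RMA and Affymetrix Expression Console are the tools listed by the submitters' processing notes, with no version. The genome build is not stated in the labels. RMA makes the arrays' distributions alike, so a shift shared by all transcripts is not visible. The platform annotation gave the gene names, and the 36176 probe sets with exactly 1 symbol were used. The brightest probe set stood for a gene, and genes were kept when their mean signal reached the median over genes. Ratios were computed with pandas 2.3.3 on Python 3.11.15, and loess trends with statsmodels 0.14.6. The counting code was tested on simulated data. Each siRNA has 1 array and the members, lists and contrasts were chosen with earlier results of these data known, so no test was made. Arrays have no read depth, and their number limits the precision.

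Genes were named by a rule: within each class those with ratios of the same sign with both siRNAs and the largest smaller ratio (8 SNORD, 6 SNORA and 3 SCARNA each way), those furthest apart between the siRNAs, genes next to the brightness threshold, all members of hosts holding 4 or more, and U3, U13 and U14. U8 and U17 probe sets carry several symbols and are not reported. SNORA14A, SNORA14B, SNORA15, SNORA57, SNORD8, SCARNA9, SCARNA9L, SCARNA10 and the other snoRNAs of shared hosts were added, where the rule did not name them, after their values were seen. Alternatives were other brightness filters, other probe sets of a gene, centring, a loess trend, 2-fold and leaving out values above 16. The 138 symbols found solely on probe sets with several symbols were not analysed here.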

Additional observations from a re-analysis of the deposited data

Results flagged for a closer look

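The median of SCARNA genes pointed opposite ways, being 0.18 for siTMPO-AS1 #1 and -0.23 for siTMPO-AS1 #2, over 16 genes and 1 array each. The second median was 0.030 with all probe sets averaged and 0.093 past the stricter brightness threshold (2 genes). It was -0.0010 with the dimmest probe set or with identifier-matched probe sets alone, so under these settings it was above 0 or close to it. Under other settings it stayed further below 0, at -0.32 with arrays centred, -0.29 with a loess trend removed and -0.17 with no brightness filter. The family-named gene SNORA9 was lower for siTMPO-AS1 #1 (-0.62) and higher for siTMPO-AS1 #2 (0.65). Its second ratio was 0.56 with arrays centred and 0.57 with a loess trend removed, both just short of 1.5-fold. Over the other SNORA9 probe sets the median ratios were 0.06 and 0.21. Neither the SCARNA nor the SNORA9 difference was tested, since each siRNA has 1 array.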

How the results depend on the processing

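No paired analysis was possible because each condition has 1 array and the result comes from no test. A median was taken to have moved when it shifted by 0.1 or more or changed sign, and a count when it shifted by more than 1.5 times; the causes were not tested beyond what each setting removes. Under the stricter brightness filter the medians with siTMPO-AS1 #1 were 0.31 for SNORD (28 genes), 0.32 for SNORA (17 genes) and 0.96 for SCARNA (2 genes), and 0.093 for SCARNA with siTMPO-AS1 #2; the counts with both siRNAs were 0 SNORD higher, 0 SNORD lower, 1 SNORA higher and 0 SNORA lower. With no filter the SCARNA median with siTMPO-AS1 #1 was 0.049, and the counts were 6 SNORD higher, 3 SNORD lower and 2 SNORA lower. Averaging all probe sets gave SCARNA medians of 0.36 and 0.030 and 0 SNORA lower, and the dimmest probe set gave SCARNA medians of 0.41 and -0.0010, a SNORA median of 0.28 with siTMPO-AS1 #1 and 0 SNORA lower. Centring gave medians with siTMPO-AS1 #2 of -0.010 for SNORD and -0.015 for SNORA, and the loess trend -0.021 and -0.014; both gave 0 SNORD higher. Leaving out genes above 16 gave a SNORD median of 0.026 with siTMPO-AS1 #1. At 2-fold the counts were 0 SNORD higher, 0 SNORD lower, 0 SNORA higher and 0 SNORA lower. With probe sets restricted to those with an identifier and matching chromosome, a setting chosen after seeing the data, the SCARNA medians were 0.31 and -0.0010 over 15 genes.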
